A study of Mus musculus with 44 samples.

Results

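The miRNAs described here are mmu-miR-103-3p and mmu-miR-107-3p (below miR-103-3p and miR-107-3p), a pair of mature miRNAs that share a seed and are known for their link to insulin sensitivity. They were chosen by name, and they are 2 of the 1978 mature miRNAs counted in mouse hypothalamus, a part of the brain that controls appetite and energy balance. The 44 libraries came from C57Bl/6J mice, either lean on regular chow or made obese by a high-fat diet (diet-induced obesity, DIO). AM132 (16 libraries) were DIO mice injected intravenously with a 16-nt oligonucleotide protected by locked nucleic acid (LNA) and complementary to mature miR-132. AM608 (16 libraries) were DIO mice injected in the same way with a 15-nt LNA oligonucleotide complementary to miR-608, which is specific to primates, as the control. Diets lasted 11 weeks, the dose was 3.3 mg/kg on each of 3 consecutive days, and tissue was collected 7 days after treatment. RCD (12 libraries) were age-matched mice on regular chow diet, and since no injection is described for them, the effect of obesity cannot be told apart from that of injection wherever RCD is the reference.

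Animal miRNAs bind their target mRNAs mainly through the seed, bases 2 to 8 from the 5′ end, so miRNAs with the same seed are predicted to reach largely the same targets. miR-103 and miR-107 are encoded within introns of the pantothenate kinase genes, whose enzymes catalyse the first step of coenzyme A synthesis. In obese mice they have been studied as brakes on insulin sensitivity in liver and fat, with the caveolin-1 mRNA as a target, and in the hypothalamus miR-103 has been studied in the control of body weight.

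The mature sequences, from RefSeq for GRCm38.p6, are shown because the pair differs by a single base. The seed is in capitals.
miR-103-3p: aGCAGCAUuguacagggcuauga
miR-107-3p: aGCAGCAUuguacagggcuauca
Counted from 1 at the 5′ end of miR-103-3p, the only difference between them was G22C, and the first 21 of the 23 bases were identical. A read that ends at base 21 or earlier therefore cannot be told apart between them, and how the authors assigned such reads is not given in the sources used here. Among the 1679 miRNAs of the table with a RefSeq mature sequence, the 2 that held this seed were miR-103-3p and miR-107-3p themselves.

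miR-103-3p is made from 2 hairpins whose mature 3′ arms are identical, so its row pools both, while miR-107-3p is made from 1. The hairpins are shown with the 3′ arm in capitals, to let the pooled loci be compared.
Mir103-1: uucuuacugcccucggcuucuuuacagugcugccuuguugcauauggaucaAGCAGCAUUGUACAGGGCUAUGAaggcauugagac
Mir103-2: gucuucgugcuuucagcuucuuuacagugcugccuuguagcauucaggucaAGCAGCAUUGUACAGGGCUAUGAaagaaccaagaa
Mir107: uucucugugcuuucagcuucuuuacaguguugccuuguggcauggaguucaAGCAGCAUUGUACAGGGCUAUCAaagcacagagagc
On GRCm38.p6, Mir103-1 lies at chr11:35782396-35782481 (plus strand), inside an intron of Pank3. Mir103-2 lies at chr2:131288052-131288137 (plus strand), inside an intron of Pank2. Mir107 lies at chr19:34820687-34820773 (minus strand), inside an intron of Pank1.

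The opposite, 5′ arms of the same hairpins have another seed, also in capitals, and are shown because their first base tells the 2 miR-103 hairpins apart.
miR-103-1-5p: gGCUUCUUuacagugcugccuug
miR-103-2-5p: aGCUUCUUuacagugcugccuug
miR-107-5p: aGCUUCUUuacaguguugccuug
In all 44 libraries together miR-103-1-5p had 9 counts, miR-103-2-5p had 21 and miR-107-5p had 12, and no library held more than 2 counts of any of them. They passed no filter on low counts and were not tested. These arms gave too few reads to show which hairpin the miR-103-3p reads came from.

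The 3′ arms were abundant by comparison. mmu-miR-103-3p had 445289 counts in all, between 6293 and 15893 per library, and took a mean of 0.243% of a library's counts (range 0.183% to 0.309%), which placed it 61st of the 1978 miRNAs. mmu-miR-107-3p had 102859 counts in all, between 1139 and 4934 per library, and took a mean of 0.0556% (range 0.0318% to 0.0915%), the 125th place. At the lowest count the counting error was 1.26% for miR-103-3p and 2.96% for miR-107-3p, which is below the spread between libraries of a group, and it covers counting error only.

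The labels name 4 batches, without saying what a batch was. AM132 and AM608 had 4 libraries each in batch 1, 8 each in batch 2 and 4 each in batch 3, while RCD had 4 in batch 2 and 8 in batch 4. Libraries had 3020192 to 5997234 miRNA counts (median 3996734). The target of AM132, mmu-miR-132-3p, lay at 64.6 to 533 CPM (counts scaled to a common library size) in AM132 of batch 2 against 537 to 761 in AM608, and the 2 groups overlapped in batches 1 and 3. Its fitted log2 fold change over the 3 batches was -0.46 ± 0.16 (SE), with an adjusted p of 0.593 by edgeR. AM132 6 and AM608 5, with 20420 and 20580 CPM of 7 pituitary markers summed (group medians in batch 2 of 309 to 433), and AM132 5, with 1846 CPM, stood apart. Results for the pair are given without these 3 libraries where that moved them by more than 1.5 times, and for the fold changes of the pair it did not. The labels do not state that each library came from a separate animal, so p-values measure the spread between these libraries, which may be in part technical.

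Levels are CPM after scaling by the trimmed mean of M-values (TMM), which sets library sizes so that most miRNAs do not differ. On this scale the pair was lower in batch 2 than in the other batches, in the mean of each group that was profiled in both. In batch 1, miR-103-3p was at 3113, 3111, 2605 and 2958 CPM in AM132 and at 3177, 3478, 2898 and 2890.5 in AM608. In batch 3 it was at 3582, 2792, 3172 and 2775 CPM in AM132 and at 2744, 2360.0, 2879.7 and 2451 in AM608. In these batches the injected groups overlapped, although all 4 AM132 libraries of batch 3 were above the AM608 mean.

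In batch 2 the level of miR-103-3p ran from 1802 to 2042 CPM in AM132 (median 1922) and from 1744 to 2051 in AM608 (median 1880.0). The 4 RCD libraries of batch 2, RCD 9 to 12, were at 2047, 2356, 1964 and 2104 CPM. In batch 4 RCD ran from 2518 to 3054 CPM (median 2906). Every library of batch 2 was thus below every RCD library of batch 4, and within batch 2 RCD overlapped both injected groups.

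The pattern was similar for miR-107-3p, at a lower level. In batch 1 it was at 561, 764, 745 and 744 CPM in AM132 and at 690.3, 790.1, 735 and 758 in AM608. In batch 3 it was at 639.8, 712, 658 and 561 CPM in AM132 and at 661, 599.9, 717 and 574 in AM608. AM132 1, at 561 CPM, was well under the other AM132 libraries of batch 1.

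In batch 2, miR-107-3p ran from 310.0 to 451 CPM in AM132 (median 401) and from 343 to 476 in AM608 (median 418). RCD 9 to 12 were at 441, 521, 448 and 418 CPM. RCD of batch 4 ran from 573 to 959 CPM (median 665), with RCD 4 the highest of all 44 libraries. The 3 groups of batch 2 overlapped, and all of batch 2 lay under all of batch 4.

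**Figure D1:**
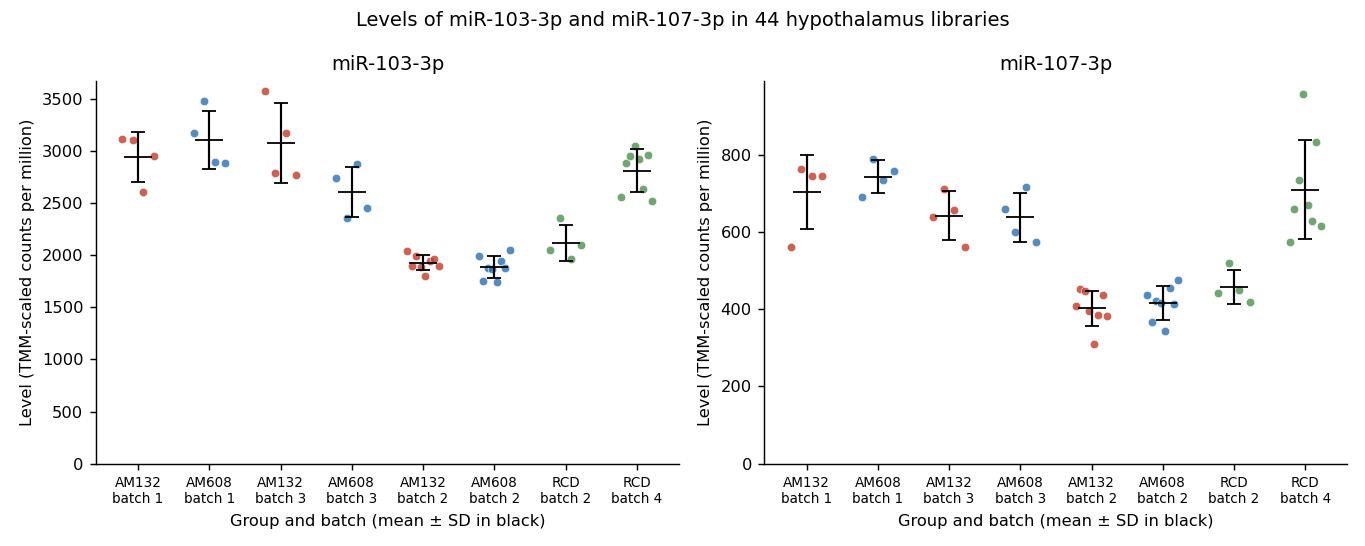
Level of miR-103-3p (left) and miR-107-3p (right) in TMM-scaled CPM, by group and batch, with 1 point per library and the mean ± SD in black (4 or 8 libraries per column). The 3 columns of batch 2 sit lowest in both panels, with miR-103-3p at means of 1890 to 2118 and miR-107-3p at means of 402 to 457.

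By mean level (± SD), miR-103-3p ordered as AM608 of batch 1 at 3111 ± 279 CPM, AM132 of batch 3 at 3080 ± 381, AM132 of batch 1 at 2947 ± 239, RCD of batch 4 at 2812 ± 208, AM608 of batch 3 at 2609 ± 244, RCD of batch 2 at 2118 ± 169, AM132 of batch 2 at 1930 ± 74.3 and AM608 of batch 2 at 1890 ± 108. Neighbours in that order overlapped in their libraries, except AM608 of batch 3 and RCD of batch 2. The gap of the mean was also larger than either SD between RCD and AM132 of batch 2. The order of miR-107-3p was AM608 of batch 1 at 743 ± 41.9 CPM, RCD of batch 4 at 709 ± 129, AM132 of batch 1 at 704 ± 95.7, AM132 of batch 3 at 643 ± 62.5, AM608 of batch 3 at 638 ± 64.1, RCD of batch 2 at 457 ± 44.5, AM608 of batch 2 at 416 ± 43.5 and AM132 of batch 2 at 402 ± 46.3. Here, too, the only neighbours without overlap were AM608 of batch 3 and RCD of batch 2.

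The comparison of AM132 with AM608 asks whether an oligonucleotide against miR-132 changed the pair in the obese hypothalamus. Neither member passed the test. In a fit of the 32 libraries that included batch, the log2 fold change of miR-103-3p was 0.06 ± 0.05 (SE), with a 95% interval of -0.03 to 0.16 and an adjusted p of 0.955 by edgeR's quasi-likelihood test. That of miR-107-3p was -0.03 ± 0.05, with an interval of -0.14 to 0.07 and an adjusted p of 0.983. The background of this comparison was low, with 2 of 559 miRNAs called (0.358%) at an adjusted p under 0.05. These were miR-34c-3p, which was higher in AM132, and let-7b-3p, which was lower, both named after their values were seen. miR-34c-3p is on a list of 7 choroid plexus and ciliated-cell markers, and it was the only 1 of them called. Of the 7, 5 were above 0 and 2 below, with a median log2 fold change of 0.09. Without AM132 5, AM132 6 and AM608 5 there was 1 call.

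Within batches, the log2 CPM difference of miR-103-3p (AM132 minus AM608) was -0.08 for batch 1, 0.03 for batch 2 and 0.24 for batch 3, with 2 of 4, 6 of 8 and 4 of 4 AM132 libraries above the AM608 mean. That of miR-107-3p was -0.09, -0.05 and 0.01 in the same order. A test of whether the effect differs between batches gave p = 0.0283 for miR-103-3p and 0.785 for miR-107-3p in edgeR, and after adjustment over 559 miRNAs these were 0.890 and 0.989. It called 0 miRNAs (0.0%), with 23 at an unadjusted p under 0.05. In bulk tissue, fewer cells of a type and less RNA per cell cannot be told apart in any of these comparisons.

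The comparisons with RCD ask how the pair stood in obese, injected mice against lean ones, and they can be made within batch 2 alone. Both share the same 4 RCD libraries, so they are not independent of each other. Both members were lower on average in both obese groups, and neither passed the test. All 8 AM608 libraries and all 8 AM132 libraries were below the RCD mean for miR-103-3p, yet the groups overlapped. For miR-107-3p, 7 of 8 AM608 and 8 of 8 AM132 libraries were below the RCD mean.

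For AM608 against RCD the log2 fold change of miR-103-3p was -0.15 ± 0.05 (SE), with a 95% interval of -0.25 to -0.05. Its unadjusted p of 0.00651 was the 5th smallest of 599 miRNAs in edgeR, and its adjusted p was 0.780. miR-107-3p was at -0.12 ± 0.09, with an interval of -0.31 to 0.07 and an adjusted p of 0.843 by edgeR. This comparison called 0 of 599 miRNAs (0.0%) with edgeR and 0 with DESeq2, while 30 of them reached an unadjusted p under 0.05.

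For AM132 against RCD the log2 fold change of miR-103-3p was -0.10 ± 0.05, with an interval of -0.20 to 0.004 and an adjusted p of 0.488 by edgeR. That of miR-107-3p was -0.15 ± 0.09, with an interval of -0.34 to 0.04 and an adjusted p of 0.586. Again 0 of 599 miRNAs were called (0.0%), with 59 at an unadjusted p under 0.05, and DESeq2 called 0. Without AM132 5, AM132 6 and AM608 5 there was 1 call, which was neither member. RCD 10 was the highest RCD library of batch 2 for both members. Without it the fold changes of miR-103-3p and miR-107-3p were -0.12 and -0.07 for AM608 against RCD, and -0.06 and -0.10 for AM132. Without the other RCD libraries, left out in turn, the fold changes of both members ran from -0.11 to -0.19 in these 2 comparisons.

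**Figure D2:**
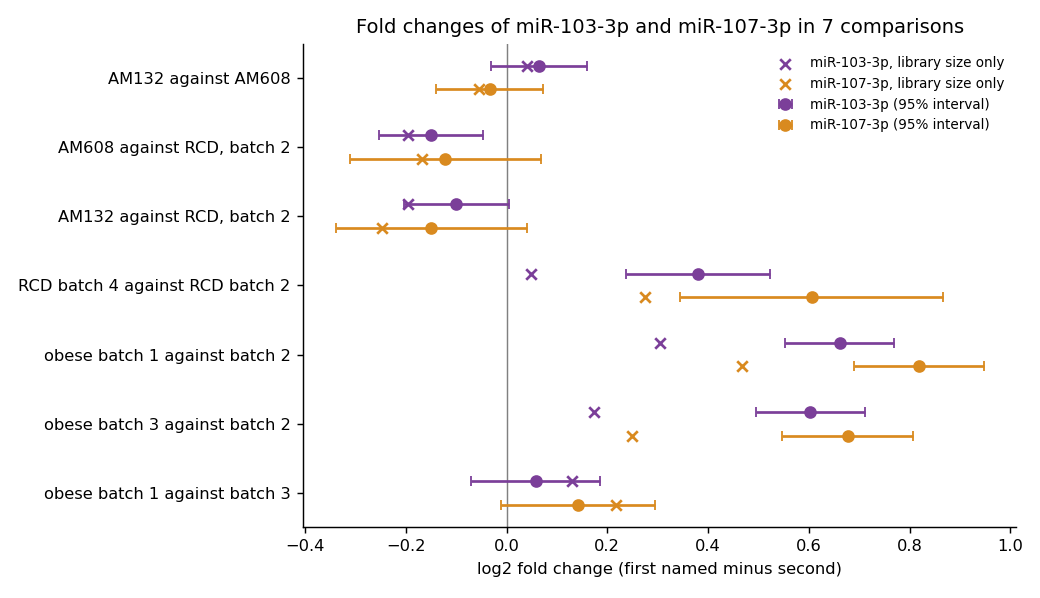
Log2 fold change of miR-103-3p (purple) and miR-107-3p (orange) in 7 comparisons, with dots and 95% intervals for the TMM-scaled edgeR fits and crosses for fits scaled by library size alone. Group comparisons lie between -0.15 and 0.06 for the dots, and the 3 comparisons of another batch with batch 2 lie between 0.38 and 0.82.

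The same labelled group could be set against itself across batches. RCD of batch 4 was higher than RCD of batch 2 for both members, with no overlap between libraries. The log2 fold change was 0.38 ± 0.07 (SE; adjusted p = 0.000201 by edgeR) for miR-103-3p and 0.61 ± 0.12 (adjusted p = 0.000643) for miR-107-3p. Of 598 miRNAs tested 26.9% were called higher and 28.4% lower, and of 590 miRNAs 19.7% had libraries apart and higher. The table thus moved both ways, and the pair was among the miRNAs that were higher.

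In the obese groups, fitted together with group as a term, the pair was likewise higher in batch 1 than in batch 2. The log2 fold change was 0.66 ± 0.05 (SE; adjusted p = 1.68e-12 by edgeR) for miR-103-3p and 0.82 ± 0.06 (adjusted p = 6.43e-13) for miR-107-3p. Here 32.9% of 611 miRNAs were called higher and 32.6% lower, and 10.4% of 594 had no overlap and were higher, both members among them. In batch 3 against batch 2 miR-103-3p was higher by 0.60 ± 0.05 (adjusted p = 1.43e-11) and miR-107-3p by 0.68 ± 0.06 (adjusted p = 5.57e-11). Of 611 miRNAs 34.2% were called higher and 31.6% lower in that comparison. Of 594 miRNAs 10.8% were apart and higher, again with both members among them.

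Batch 1 and batch 3 were not told apart by the pair. The log2 fold change of batch 1 minus batch 3 was 0.06 ± 0.06 (interval -0.07 to 0.19, adjusted p = 0.818 by edgeR) for miR-103-3p and 0.14 ± 0.07 (interval -0.01 to 0.29, adjusted p = 0.409) for miR-107-3p. This comparison called 2 of 611 miRNAs (0.327%), let-7d-3p and miR-125a-5p, which are named after their values were seen.

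The size of the batch difference depended on the scaling, and with it how it compared with the group differences. With libraries scaled by their total alone, the median of all miRNAs moved to -0.35 for RCD of batch 4 against batch 2, and the split of calls went from 161 higher and 170 lower to 61 higher and 280 lower. miR-103-3p was then at 0.05 (adjusted p = 0.635 by edgeR) and miR-107-3p at 0.28 (adjusted p = 0.105), so neither was called, though both stood above that median. For batch 1 against batch 2 the median moved to -0.32, the split went from 201 higher and 199 lower to 106 and 320, and the pair was at 0.30 and 0.47, both still called. For batch 3 against batch 2 the median moved to -0.42, the split went from 209 higher and 193 lower to 85 and 355, and the pair was at 0.17 and 0.25, both still called. Under the same scaling the group comparisons gave -0.20 for miR-103-3p and -0.17 for miR-107-3p in AM608 against RCD, -0.20 and -0.25 in AM132 against RCD, and 0.04 and -0.05 in AM132 against AM608, none of them called. For miR-103-3p the difference from RCD within batch 2 was then at least as large in size as that between obese batch 3 and batch 2. The medians over all miRNAs were -0.04 for AM608 and -0.09 for AM132 against RCD, and -0.42 for batch 3 against batch 2. Of these differences of miR-103-3p, only that between batches was called.

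Markers of cell types moved with the batch as well. Their calls stand beside shares over all miRNAs of 26.9% higher and 28.4% lower in RCD of batch 4. In the obese groups these shares were 32.9% and 32.6% in batch 1, and 34.2% and 31.6% in batch 3, each against batch 2. The 5 neuronal markers summed to 103100 to 142600 CPM over all libraries of batch 2 and to 263700 to 385300 in the other batches, and 5 of 5 were called higher in each of the other batches against batch 2. The 3 oligodendrocyte markers summed to 1251 to 2485 CPM in batch 2 and to 292 to 1745 elsewhere, and 3 of 3 were called lower. The 7 choroid plexus and ciliated-cell markers summed to 3859 to 4862 CPM in batch 2, and to 1702 to 3058 elsewhere apart from RCD 5 at 5003 and RCD 2 at 8836. Outside batch 2, 4 of these 7 were called lower in RCD and 5 in the obese groups, with 0 called higher. Of the 7 pituitary markers 4 were called lower outside batch 2 in RCD and 6 in the obese groups. The obese libraries of batch 2 include AM132 6 and AM608 5, at 20420 and 20580 CPM of these markers, and AM132 5 at 1846. Their medians were 433 CPM in AM132 and 309 in AM608, beside 210.5 to 257.5 in batches 1 and 3. Of the 4 endothelial and mural markers 2 to 4 were called higher outside batch 2, and of the 3 myeloid markers 2 to 3 were called higher. Of 3 muscle markers tested 2 were called lower in RCD and 0 in the obese groups, and of 4 erythroid markers 0 were called. No marker was at 0 in all libraries. The part of these markers in the batch difference of the pair was not tested.

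The ratio of miR-103-3p to miR-107-3p within a library does not depend on scaling, and it shows how closely the members kept step. There were 4.43 counts of miR-103-3p per count of miR-107-3p in the median library, and between 3.19 and 5.81 over all 44. On the log2 scale the ratio had a mean of 2.14 ± 0.18 (SD, n = 44). The lowest value, 1.67, was in RCD 4, the library with the most miR-107-3p, and the highest, 2.54, was in AM132 9, the library with the least.

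Within batch 2 the mean log2 ratio (± SD) was 2.27 ± 0.14 in AM132, 2.19 ± 0.08 in AM608 and 2.21 ± 0.09 in RCD. In batch 1 it was 2.07 ± 0.28 in AM132 and 2.06 ± 0.13 in AM608, and in batch 3 it was 2.26 ± 0.21 in AM132 and 2.03 ± 0.05 in AM608. RCD of batch 4 had the lowest mean, 2.00 ± 0.17. The groups overlapped in each of these batches.

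In 7 comparisons of the ratio, adjusted together, none passed an adjusted p of 0.05. AM132 exceeded AM608 by 0.10 on the log2 scale (2-sided permutation p = 0.0803, adjusted 0.187). Against RCD in batch 2, AM608 differed by -0.03 (exact permutation p = 0.62, adjusted 0.62) and AM132 by 0.06 (exact permutation p = 0.493, adjusted 0.575). RCD of batch 4 was below RCD of batch 2 by a difference of -0.21 (exact permutation p = 0.0404, adjusted 0.141). Obese batch 1 differed from batch 2 by -0.16 (permutation p = 0.0213, adjusted 0.141), batch 3 from batch 2 by -0.08 (p = 0.155, adjusted 0.271 by permutation), and batch 1 from batch 3 by -0.08 (p = 0.433, adjusted 0.575 by permutation). In each of the 3 comparisons with batch 2 the fold change of miR-107-3p was the larger of the pair, without a difference in the ratio that passed the adjustment.

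**Figure D3:**
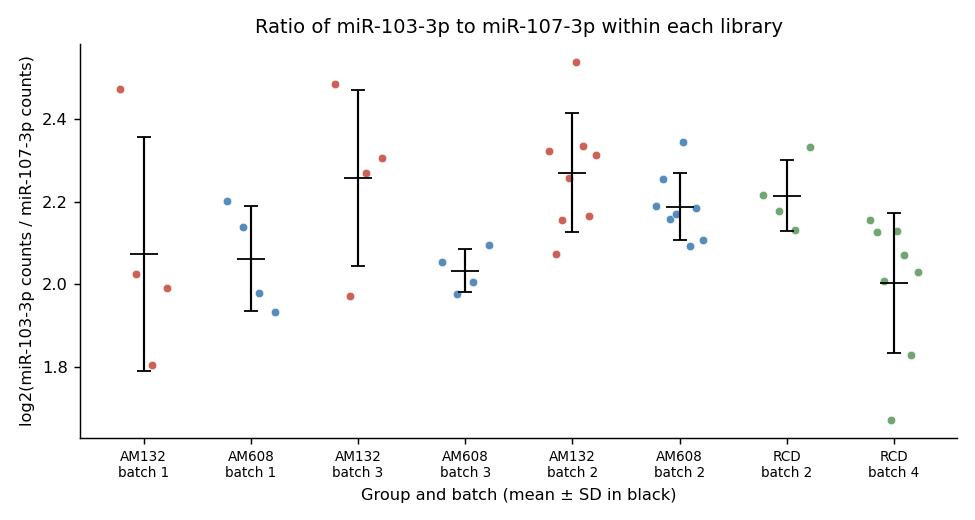
Log2 ratio of miR-103-3p to miR-107-3p counts in each of 44 libraries, by group and batch, with the mean ± SD in black (4 or 8 libraries per column). Means run from 2.00 in RCD of batch 4 to 2.27 in AM132 of batch 2, the groups of 1 batch overlap, and the axis does not start at 0.

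Among libraries of the same group and batch the members varied together in part. With each library's log2 CPM taken relative to the mean of its group and batch, Pearson's r over 44 libraries was 0.52 (permutation p = 0.00062, adjusted over 5 correlations 0.0015) and Spearman's rho was 0.526 (permutation p = 0.00093). Without AM132 13 and AM132 3, the libraries farthest out in miR-103-3p, r was 0.606. Batch 2 gave r = 0.78 over 20 libraries (permutation p = 7e-05, adjusted 0.00035, rho = 0.753) and batch 4 gave 0.82 over 8 (permutation p = 0.012, adjusted 0.02, rho = 0.976). Without the 2 libraries farthest out, r was 0.718 in batch 2 and 0.764 in batch 4. In batch 3 it was 0.47 (permutation p = 0.28, adjusted 0.35) over 8 libraries. In batch 1 it was -0.18 (permutation p = 0.69, adjusted 0.69) over 8 libraries, so the relation was not seen there. Batch 1 includes AM132 1, at 9.13 log2 CPM of miR-107-3p against 9.54 to 9.58 in the other AM132 libraries. Leaving out AM132 3 and AM608 2, the farthest in miR-103-3p, kept AM132 1 and gave r = -0.29. The correlation without AM132 1 was not tested. Both values of a point come from the same library and scaling factor, and reads too short to tell the members apart may have entered both.

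**Figure D4:**
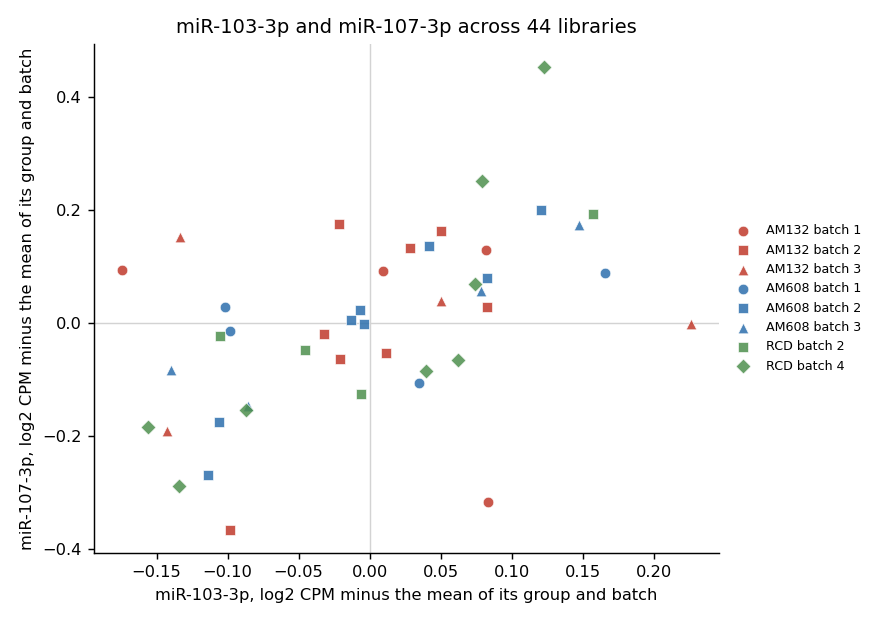
Deviation of miR-107-3p against that of miR-103-3p in 44 libraries, each as log2 CPM minus the mean of its group and batch, with colour for the group and marker shape for the batch. Batch 2 (squares) and batch 4 (diamonds) run from lower left to upper right, and AM132 1 of batch 1 lies far below the rest at the right.

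The miRNAs most like each member, by the same centred correlation over 44 libraries against 593 others, were different ones. For miR-103-3p they were miR-1839-5p (r = 0.756), miR-374b-5p (0.644), miR-3535 (0.633), miR-409-5p (0.625) and miR-191-5p (0.610), and miR-107-3p came 13th. For miR-107-3p they were miR-29c-3p (0.847), miR-361-5p (0.829), miR-30b-5p (0.819), miR-29a-3p (0.806) and miR-124-3p (0.770), and miR-103-3p came 69th. The median r over all 593 was 0.008 for miR-103-3p and 0.0801 for miR-107-3p. miR-124-3p is a neuronal marker, and the miR-29 family is enriched in astrocytes and mature neurons.

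miR-103 and miR-107 belong to the wider superfamily of miR-15 and miR-107, which shares the bases AGCAGC near the 5′ end but shifts them by 1 base. The other members are printed to show that shift, with bases 2 to 8 in capitals.
miR-16-5p: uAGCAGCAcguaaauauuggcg
miR-195a-5p: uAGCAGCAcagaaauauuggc
miR-497a-5p: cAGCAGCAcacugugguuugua
miR-322-5p: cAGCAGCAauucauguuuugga
miR-15b-5p: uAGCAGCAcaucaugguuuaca
miR-15a-5p: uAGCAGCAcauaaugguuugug
miR-503-5p: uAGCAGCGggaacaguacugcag
AGCAGC starts at base 1 in miR-103-3p and miR-107-3p and at base 2 in these 7. Of the 1679 miRNAs with a mature sequence, 15 held AGCAGC within bases 1 to 9, and 9 of those averaged at least 1 CPM, which are the pair and these 7.

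The pair made up a median of 80.01% of the counts of these 9 miRNAs (range 65.34% to 84.78% over 44 libraries). miR-103-3p had a mean of 2466 CPM over the 44 libraries and miR-107-3p 567 CPM. miR-16-5p, which is known to restrain cell cycle genes, was close to miR-107-3p at 602 CPM, and which of them was higher differed by batch. The mean of miR-107-3p was above that of miR-16-5p in all groups of batches 1 and 2 (457 against 387 CPM in RCD of batch 2) and below it in batches 3 and 4 (709 against 846 in RCD of batch 4). In batch 1 and in the injected groups of batch 2 the gap was under the SD of either. In AM132 of batch 3 and RCD of batch 4 it was under the SD of miR-16-5p (127 and 190 CPM). miR-195a-5p was at 125 CPM. miR-497a-5p, made from the same cluster as miR-195a, was at 45.7 CPM. miR-322-5p and miR-503-5p, neighbours on the X chromosome, were at 18.4 and 6.40 CPM, and miR-15b-5p and miR-15a-5p were at 14.3 and 8.59. The level of the superfamily in these libraries was therefore mostly that of miR-103-3p.

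None of the 7 passed the test between groups. Against AM608, 4 of 7 were above 0 and 3 below in AM132, with a median log2 fold change of 0.001 beside 0.004 over all miRNAs tested. For AM608 against RCD 6 of 7 were below 0, as was the pair, with a median of -0.18 beside 0.001 over all. For AM132 against RCD 5 of 7 were below 0, with a median of -0.04 beside 0.013. Scaled by library size alone, 5, 6 and 7 of 7 were below 0 in these comparisons, and again 0 passed. Their medians were then -0.02, -0.23 and -0.15, beside -0.02, -0.04 and -0.09 over all miRNAs tested.

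Between batches most of the 7 were called higher outside batch 2. In RCD of batch 4 against batch 2, 5 of 7 were called higher and 0 lower, beside 26.9% higher and 28.4% lower over all 598 miRNAs, with a median of 0.69 beside -0.02 over all. miR-16-5p had a larger change than either member of the pair, from 329 to 418 CPM in batch 2 to 685 to 1242 in batch 4 (log2 fold change 1.10 ± 0.15, adjusted p = 1.86e-05 by edgeR). miR-195a-5p was at 1.11 ± 0.37 (adjusted p = 0.0185), with RCD 7 at 577 CPM against a median of 155.5 in its batch. miR-15b-5p, at -0.09 ± 0.17, and miR-503-5p, at 0.24 ± 0.18, did not pass. In the obese groups 6 of 7 were called higher in batch 1 and 6 of 7 in batch 3, each against batch 2, beside 32.9% and 34.2% of all 611 miRNAs. Scaled by library size alone, 1 of 7 was called higher in RCD of batch 4, beside 61 of all 598 miRNAs. In obese batch 1 and obese batch 3 it was 3 of 7 each, beside 106 and 85 of all 611. In obese batch 3 miR-15b-5p was called lower, beside 355 of all 611.

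**Figure D5:**
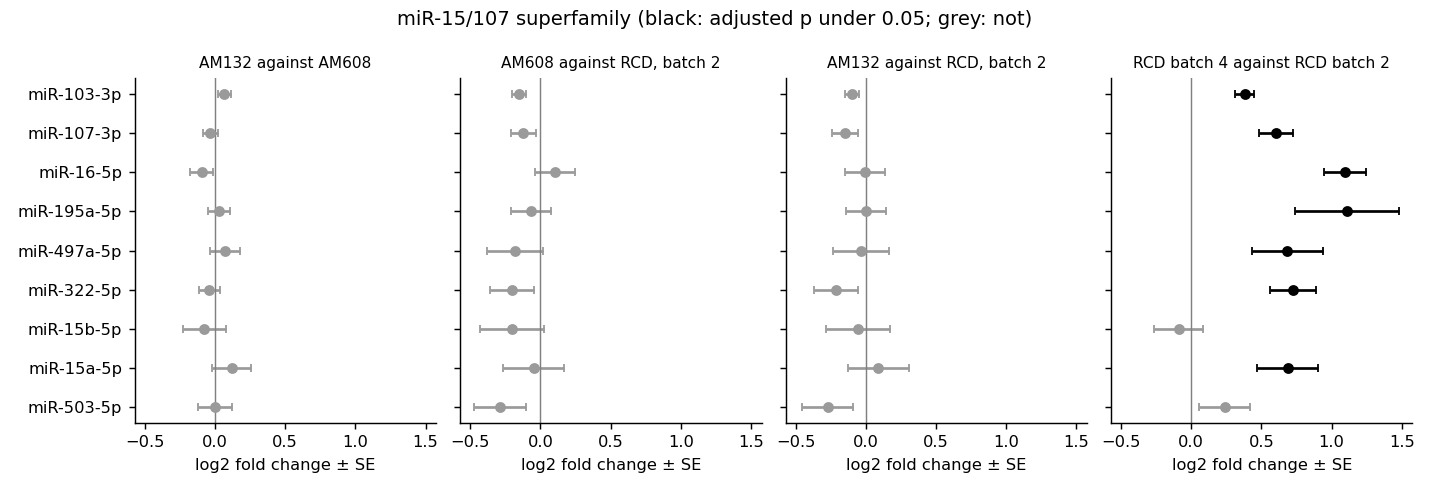
Log2 fold change ± SE of the pair and the other 7 superfamily miRNAs in 4 comparisons, with black for an adjusted p under 0.05 and grey for the rest. In the 3 group comparisons 0 of 9 passed, and in RCD of batch 4 against batch 2 the pair and 5 of the 7 did.

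A list of 29 other miRNAs studied in insulin action and glucose control put the pair beside the rest of its field. Of the 27 tested between groups, 0 were called in any of the 3 comparisons. For AM132 against AM608, 15 were above 0 and 12 below, or 11 and 16 when scaled by library size alone. The median was then -0.02 both in the list and over all miRNAs tested. The smallest p were those of miR-27b-3p, which acts in lipid metabolism (0.14 ± 0.07), and of miR-375-3p, a regulator of insulin secretion (-1.47 ± 0.78), both with an adjusted p of 0.925 by edgeR.

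For AM608 against RCD, 15 were above 0 and 12 below, led by miR-375-3p (4.34 ± 1.72) and miR-320-3p (0.12 ± 0.05), both with an adjusted p of 0.799 by edgeR. miR-375-3p is also on the pituitary marker list that set AM608 5 apart. For AM132 against RCD, 20 were above 0 and 7 below, led by miR-320-3p (0.12 ± 0.05) and let-7a-5p (0.11 ± 0.06), both with an adjusted p of 0.488 by edgeR. Scaled by library size alone, 9 were above 0 and 18 below in both comparisons with RCD, so these counts turned with the scaling. The medians of the list were then -0.02 and -0.06, above the -0.04 and -0.09 over all miRNAs tested.

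Across batches the list went both ways, with more calls higher than lower on the TMM scale. Of 28 tested, 16 were called higher and 4 lower in RCD of batch 4 against batch 2, beside 26.9% higher and 28.4% lower over all miRNAs, and its median was 0.28 beside -0.02 over all. In the obese groups 18 were called higher and 5 lower in batch 1 against batch 2, beside 32.9% and 32.6% over all, with a median of 0.47 beside 0.02. In batch 3 against batch 2 it was again 18 and 5, beside 34.2% and 31.6% over all, with a median of 0.47 beside 0.02. Under scaling by library size alone these calls were 8 and 8, 13 and 8, and 10 and 9. Over all miRNAs they were then 61 higher and 280 lower of 598, 106 and 320 of 611, and 85 and 355 of 611. The median of the list for RCD turned to -0.05 beside -0.35 over all. In the obese groups its medians were 0.12 and 0.04, beside -0.32 and -0.42 over all.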

How the data were processed

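Small RNA of 44 hypothalamus libraries was made with the miRNeasy and NEBNext small RNA kits and read on a NextSeq instrument, per the labels' protocols. The authors deposited raw counts per mature miRNA, with no normalisation. The submitters' processing notes list FastQC, and the aligner, miRNA release and assignment of shared reads are not given in the sources used here. Of 1978 miRNAs 432 had 0 counts. The table of tRNA fragments was not used, and 0 columns belonged to other samples.

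The filter was filterByExpr with a minimum count of 10 and a minimum total of 15. After TMM scaling, the quasi-likelihood test of edgeR 4.0.16 was used (R 4.3.3, limma 3.58.1), and p-values were adjusted by Benjamini-Hochberg over all miRNAs tested, with a threshold of 0.05. Library depth of 3020192 to 5997234 counts kept counting error of the pair below 3%. AM132 and AM608 were compared with batch as a term, RCD within batch 2 in 1 fit of 3 groups, and batches with group as a term. The SE was taken as the size of the fold change over the root of F. CPM and log2 CPM (prior count 2) used TMM over 44 libraries. Ratios were compared by 2-sided permutation of the absolute difference, exact over 495 splits for 8 against 4 libraries and with 100000 resamples within batch or group otherwise. Sequences came from RefSeq, with introns from GENCODE. Fits were tested on simulated data.

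Replicate numbers were not taken to pair libraries in the main fits. Even so, the deviations of same-numbered AM132 and AM608 libraries correlated over 0.1 in 11 of 16 pairs (range -0.305 to 0.562). No share for differently numbered pairs is given, so this does not show that same-numbered libraries were more alike. A replicate block was run as an alternative. With the block the SE of miR-103-3p for AM132 against AM608 was 0.0375 in place of 0.0466. The closest 2 libraries of a group differed by a chi-square of 4.55 per degree of freedom, so none was a duplicate. Members and lists were chosen with earlier results of these data known. The miRNAs named were the pair, the opposite arms, the superfamily, the 2 of smallest p of the insulin and glucose list per group comparison and the 5 most like each member, besides miR-132-3p and the miRNAs named after their values were seen. Alternatives were RLE or library-size scaling, DESeq2 1.42.0, no filter or 10 CPM, no batch term, single batches or groups, all 44 libraries, a replicate block, 0.5 added to counts in the ratio, and libraries left out.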

Additional observations from a re-analysis of the deposited data

Results flagged for a closer look

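Of 24 groups of libraries checked for a member or their ratio, 2 had a library far from the others. By chance about 1 in 20 groups would, so 2 of 24 is close to that share. For miR-107-3p, AM132 1 was at 9.13 log2 CPM, the lowest of the 4 AM132 libraries of batch 1, with the others between 9.54 and 9.58. AM132 9 was at 8.28, the lowest of the 8 AM132 libraries of batch 2, with the others between 8.58 and 8.82. Without both, the fold change of miR-107-3p between AM132 and AM608 was 0.01 in place of -0.03 (edgeR, adjusted p = 0.998), and the difference of the log2 ratio was 0.05 in place of 0.10 (permutation p = 0.267). Their cause was not tested.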

How the results depend on the processing

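Of 144 alternative fold changes of the pair, 138 kept direction and call, 4 turned and 2 lost the call. Those that turned were small and uncalled: for AM132 against AM608, miR-103-3p at -0.0587 in batch 1 alone and miR-107-3p at 0.00777 in batch 3 alone and at 0.014 without AM132 1 and AM132 9, and for obese batch 1 against batch 3, miR-103-3p at -0.0817 in AM132 only. The 2 lost calls were RCD of batch 4 against batch 2 scaled by library size alone, at 0.0485 for miR-103-3p and 0.276 for miR-107-3p. Of 72 counts of calls 13 moved by over 1.5 times. For AM132 against AM608 (2 calls) there was 1 with no filter, in batch 2 alone and without AM132 5, AM132 6 and AM608 5, and 0 with no batch term and in batch 1 and batch 3 alone. For AM132 against RCD there was 1 without those 3 libraries, in place of 0. For batch 1 against batch 3 (2 calls) there were 0 with RLE, library size, no filter and AM132 only, 1 with AM608 only and 13 with DESeq2. Of 24 ratio alternatives 20 kept direction and call. Leaving out each RCD library of batch 2 gave -0.0535 to 0.0139 for AM608 against RCD. For RCD of batch 4 against batch 2 it gave -0.239 to -0.172, and 3 of the 4 lost an unadjusted p under 0.05. The exact permutation p, from fewer libraries, was 0.0667, 0.0545 and 0.0848 without RCD 9, 10 and 12, and 0.0485 without RCD 11.

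Replicate numbers are shared by the groups, and 11 of 16 same-numbered pairs of AM132 and AM608 and 3 of 8 with RCD correlated over 0.1. No share for differently numbered pairs is given beside these. With the replicate block, miR-103-3p was at 0.06 and miR-107-3p at -0.04 for AM132 against AM608 (2 calls), at -0.16 and -0.17 for AM608 against RCD (0 calls), and at -0.11 and -0.20 for AM132 against RCD (0 calls), so no call changed. With 4 RCD libraries, miR-107-3p had wide intervals within batch 2, at -0.31 to 0.07 for AM608 and -0.34 to 0.04 for AM132. Its interval for AM132 against AM608 was -0.14 to 0.07. For miR-103-3p the intervals against RCD, -0.25 to -0.05 and -0.20 to 0.004, were close in width to its -0.03 to 0.16 for AM132 against AM608. The cause of the shifts between settings was not tested. The alternatives without AM132 1 and AM132 9 were chosen after seeing the data.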
